A study of Mus musculus with 10 samples.

Results

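The genes described here are 28 mouse genes of cholesterol synthesis and of its control by the transcription factor SREBP2. They were taken by symbol from a list of genes with these functions, out of 41388 genes in the tables. All 28 were found, and all 28 passed the filter on low counts in both model fits, with Ggps1 having the lowest count of any library at 234. Liver RNA was sequenced from 10 mice aged 10 weeks from a reciprocal cross between the obese line BFMI (BFMI860-12/Hber, the Berlin Fat Mouse Inbred line) and the lean strain B6N (C57BL/6NCrl). There were 6 F1 males: 3 born to BFMI dams mated with B6N sires, named matBFMI, and 3 born to B6N dams mated with BFMI sires, named patBFMI. Each had its own dam, and both crosses were fed a high fat diet from day 21 to day 70. The inbred animals were 1 female and 1 male of BFMI and 1 female and 1 male of B6N. Their diet is a standard breeding diet in the sample records and a high fat diet in the design text. The study asked how the direction of the cross acts on male offspring, with the inbred animals as the parental controls.

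Hepatocytes make cholesterol from acetyl-CoA through mevalonate, farnesyl diphosphate, squalene and lanosterol. The transcription factor SREBP2, encoded by Srebf2, is held in the endoplasmic reticulum together with its escort protein Scap by the sterol sensors Insig1 and Insig2, and when sterols are low it moves to the Golgi, is cleaved and switches on the genes of nearly every step. The 28 genes were ordered by role. The precursor steps to farnesyl and geranylgeranyl diphosphate are Acat2, Hmgcs1, Mvk, Pmvk, Mvd, Idi1, Fdps and Ggps1. The steps from squalene formation to lanosterol are Fdft1, Sqle and Lss, and those from lanosterol to cholesterol are Cyp51, Tm7sf2, Msmo1, Nsdhl, Hsd17b7, Ebp, Sc5d and Dhcr7. The regulators are Srebf2, Scap, Insig1 and Insig2, and the genes of sterol transport and esterification are Stard4, Soat2, Tmem97, Npc1 and Npc2. Autosomal genes have the same pair of parental alleles in both crosses. F1 males carry the X chromosome of their mother, so Nsdhl and Ebp, which lie on the X chromosome, come from BFMI in matBFMI and from B6N in patBFMI.

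Promoter windows of RefSeq (build GRCm38.p6, 250 bases before to 50 bases after the start of each transcript) were given for 22 of the 28 genes. The CCAAT box, bound by the factor NF-Y that acts beside SREBP at many sterol genes, was searched as CCAAT on both strands. It was in a window of 20 of these 22 genes (90.9%), against 41.1% of all 27025 genes with a window. The core of a sterol regulatory element was searched as TCACNCCAC on both strands. It was in 1 of the 22 genes (4.55%), against 1.44% of all genes, and that gene was Hmgcs1, where its first base lies at -137 from the start. The shorter run CACNCCAC was in 3 of the 22 genes (13.6%), Acat2, Hmgcs1 and Insig1, against 7.12% of all genes. A match is a run of letters and not a measured binding site, and a gene with several windows was counted once. The 250 bases before the start are printed for Hmgcs1, because it holds this core, and for Nsdhl, Msmo1 and the first of 3 windows of Insig2, which were chosen after their values were seen because they show the differences described further on. Capitals mark CCAAT boxes, read as CCAAT or, on the other strand, ATTGG, and in Hmgcs1 also the core at -137. The windows lie at chr13:119690101-119690350 (plus strand), chrX:72918271-72918520 (plus strand), chr8:64733579-64733828 (minus strand) and chr1:121332590-121332839 (minus strand).
Hmgcs1: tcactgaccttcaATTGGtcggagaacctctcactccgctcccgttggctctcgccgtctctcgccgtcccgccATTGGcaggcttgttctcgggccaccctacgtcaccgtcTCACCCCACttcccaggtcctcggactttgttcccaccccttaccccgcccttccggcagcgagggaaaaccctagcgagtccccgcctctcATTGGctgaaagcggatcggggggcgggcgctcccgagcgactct
Nsdhl: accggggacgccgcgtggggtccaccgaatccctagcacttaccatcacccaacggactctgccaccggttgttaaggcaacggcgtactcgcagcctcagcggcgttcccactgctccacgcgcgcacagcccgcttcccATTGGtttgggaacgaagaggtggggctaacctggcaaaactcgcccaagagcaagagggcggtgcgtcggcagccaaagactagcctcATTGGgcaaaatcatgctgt
Msmo1: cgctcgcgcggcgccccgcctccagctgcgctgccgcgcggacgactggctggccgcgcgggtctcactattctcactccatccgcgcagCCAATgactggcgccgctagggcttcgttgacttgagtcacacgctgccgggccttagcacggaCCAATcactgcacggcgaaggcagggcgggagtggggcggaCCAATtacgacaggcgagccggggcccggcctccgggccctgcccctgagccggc
Insig2: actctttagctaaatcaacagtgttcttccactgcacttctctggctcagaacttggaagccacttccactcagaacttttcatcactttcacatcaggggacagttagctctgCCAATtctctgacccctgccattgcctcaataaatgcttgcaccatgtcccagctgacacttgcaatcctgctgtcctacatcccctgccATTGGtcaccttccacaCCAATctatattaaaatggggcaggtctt
The Hmgcs1 window before the start holds the core and 3 CCAAT boxes, the Msmo1 window 3, the Nsdhl window 2 and the Insig2 window 3.

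Reads assigned to genes numbered 51080161 to 58955349 in the F1 libraries and 46988713 to 96023811 in the inbred libraries, the BFMI male being the deepest. The library patBFMI 1 stood apart from the other F1 libraries, with 32421 genes that had a count against 22095 to 26694. The inbred libraries had 29942 to 34572 such genes, all above those other F1 libraries. The headers name lane 6 for all matBFMI libraries, lane 5 for all patBFMI libraries, lane 1 for the BFMI male and lane 4 for the other inbred animals, so that lane cannot be told apart from direction of cross or from F1 against inbred. Markers of hepatocytes were present at high level in all libraries. Alb, the albumin gene, was at 38231 to 68678 CPM, lowest in patBFMI 1. Cps1, a urea cycle enzyme, was at 2503 to 7253 CPM, lowest in the BFMI male. In bulk liver, fewer cells of a type and less RNA per cell cannot be told apart. Values of single genes are given as CPM (reads of a gene relative to all reads of the library, scaled to the same total) after TMM scaling over all 10 libraries, and levels are compared between genes only in the deposited RPKM, which is per length.

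By mean RPKM over the 10 libraries the genes ranged over about 2 orders of magnitude. The highest was Sc5d, the sterol C5-desaturase, at 256 RPKM, followed by Hmgcs1, the HMG-CoA synthase of the cytosol, at 176 RPKM, Insig1 at 163 RPKM, Fdps, the farnesyl diphosphate synthase, at 127 RPKM and Insig2 at 113 RPKM. The lowest were Mvk, the mevalonate kinase, at 6.37 RPKM, Srebf2 at 3.86 RPKM and Ggps1, which makes geranylgeranyl diphosphate for protein prenylation, at 2.76 RPKM. The mRNA of the regulator Srebf2 was thus the second lowest of the 28, with fewer RPKM than 26 of them.

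Taken as the median over the 28 genes of the ratio to the mean of the 10 libraries on the log scale, their level was 1.14, 1.19 and 1.52 in matBFMI 1 to 3 and 0.944, 1.22 and 0.966 in patBFMI 1 to 3. It was 0.995 in the BFMI female, 0.782 in the BFMI male, 0.815 in the B6N female and 0.644 in the B6N male. The matBFMI 3 library was thus the highest and the B6N male the lowest of the 10. The library matBFMI 3 was the highest F1 library for 24 of the 28 genes, against 24.0% of all 16797 genes tested, and the highest of the matBFMI libraries for 25, against 39.5%. Among the patBFMI libraries, patBFMI 2 was the highest for 23 genes, against 41.4% of all genes, but it was the lowest of them for Scap, Soat2 and Npc1. The B6N male was the lowest of all 10 libraries for 16 genes, against 9.86% of the 19974 genes tested in the fit of 10 libraries. Mvd, the mevalonate diphosphate decarboxylase, had the widest range, with log2 ratios between 1.27 in matBFMI 3 and -1.56 in the B6N male.

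**Figure D1:**
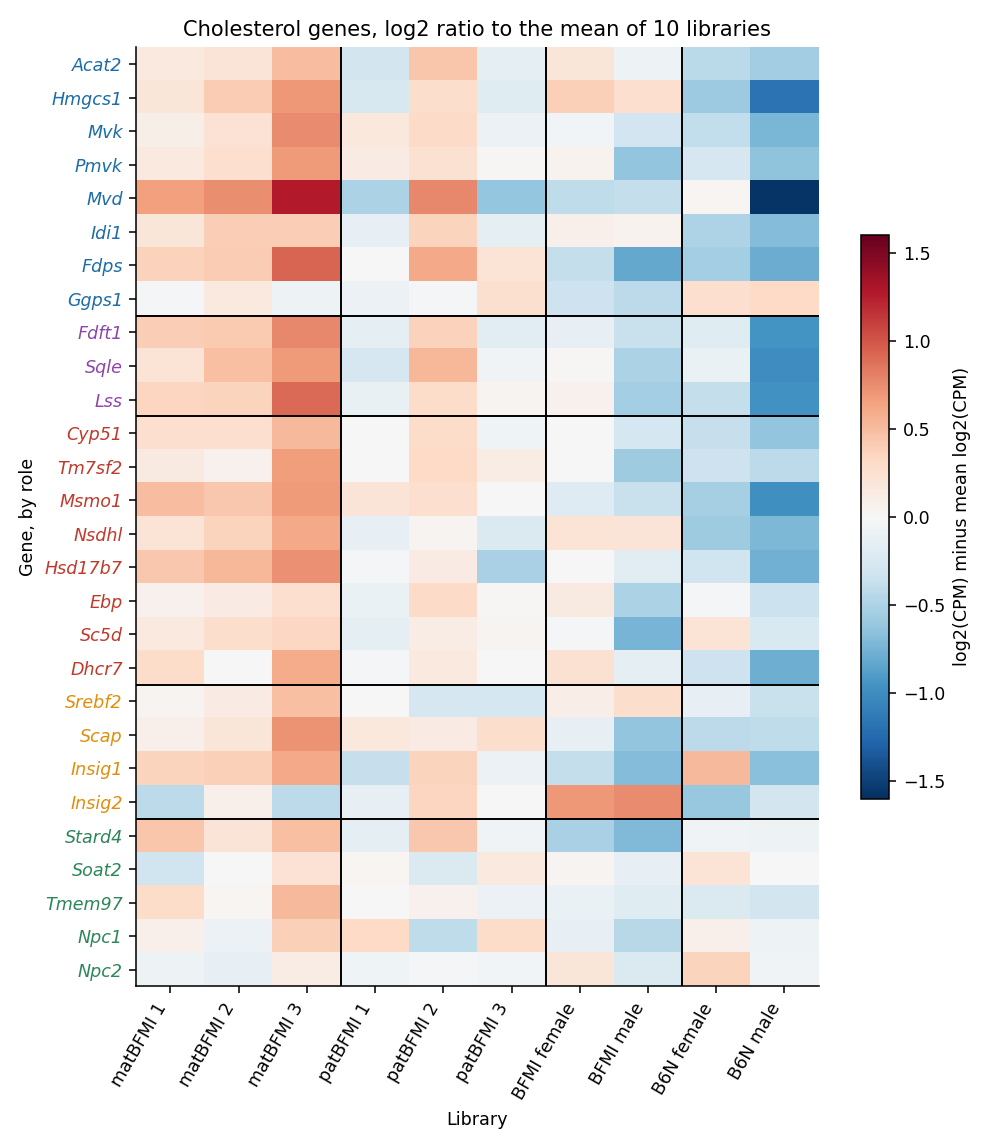
Heat map of the 28 genes (rows, by role) in the 10 libraries (columns), where colour is log2(CPM) minus the mean log2(CPM) of that gene over the 10 libraries, red above and blue below the mean. The column of matBFMI 3 is red for most genes and that of the B6N male blue, and Insig2 runs against the others, with its highest values in both BFMI animals.

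In F1 males, the cholesterol genes were a little higher on the matBFMI side, with a median log2 fold change of 0.27 of matBFMI over patBFMI against -0.01 over all genes tested, and none of the 28 passed the test on its own. At an adjusted p of 0.05 from edgeR, 0 of 28 genes were called, against 24 of 16797 genes (0.143%), or 0.0953% called higher and 0.0476% called lower. At an unadjusted p under 0.05, 10 genes were higher and 0 lower in matBFMI, against 5.14% of all genes for higher and 4.7% for lower. DESeq2 called 2 of the 28, Nsdhl and Hsd17b7, against 1.05% of all genes called higher by that tool. The log2 fold change was positive for 25 of the 28 genes, against 48.9% of all genes, and over the other scalings and tools for 24 to 27. The exceptions were Insig2 at -0.33, Ggps1 at -0.05 and Soat2, which esterifies cholesterol, at -0.03. The lowest matBFMI library exceeded the highest patBFMI library for 7 genes, against 8.26% of all genes, and the reverse held for 0 genes, against 7.07%.

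Of the 8 genes of the precursor steps, 7 had estimates above 0, the median log2 fold change was 0.26, and 2 of them, Hmgcs1 and Mvd, were among those with an unadjusted p under 0.05. Hmgcs1, which condenses acetyl-CoA and acetoacetyl-CoA to HMG-CoA, was at 636, 742 and 901 CPM in matBFMI and at 465, 677 and 487 CPM in patBFMI. The matBFMI 1 value lay below that of patBFMI 2, so that the groups overlapped. Its log2 fold change was 0.47 ± 0.17 (SE, n = 3 each, edgeR adjusted p = 0.406), or 1.39 fold. Mvd was at 41.1, 43.7 and 63.2 CPM in matBFMI and at 18.4, 44.6 and 17.0 CPM in patBFMI. Here patBFMI 2 lay within the range of matBFMI while the other patBFMI animals were below it. The log2 fold change of Mvd was 0.88 ± 0.34 (edgeR adjusted p = 0.441), the largest of the 28, and it was called when patBFMI 2 was left out (edgeR adjusted p = 0.046, log2 fold change 1.46) and without the filter on low counts. That adjusted p ranged between 5.95e-11 and 0.997 over the alternatives. The other precursor genes lay between 0.24 and 0.28, except Ggps1.

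All 3 genes from squalene to lanosterol were higher in matBFMI by the estimate, with a median log2 fold change of 0.47 and none past the adjusted threshold. Fdft1, the squalene synthase, was at 91.8, 93.4 and 118.8 CPM in matBFMI and at 62.5, 90.2 and 61.6 CPM in patBFMI. Lss, which closes the rings of lanosterol, was at 115.8, 117.3 and 171.7 CPM in matBFMI and at 84.5, 111.6 and 94.1 CPM in patBFMI. For both genes all matBFMI values lay above all patBFMI values, with patBFMI 2 closest to the matBFMI range. The log2 fold changes were 0.49 ± 0.16 for Fdft1 (edgeR adjusted p = 0.366) and 0.47 ± 0.17 for Lss (edgeR adjusted p = 0.406). Sqle, the squalene epoxidase, had a log2 fold change of 0.35 ± 0.20 with overlapping groups.

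Of the 8 genes from lanosterol to cholesterol, all had positive log2 fold changes, between 0.06 for Ebp and 0.67 for Hsd17b7. Hsd17b7, a 3-ketosteroid reductase of the C4-demethylation complex, was at 142.0, 151.5 and 174.6 CPM in matBFMI and at 103.2, 115.3 and 73.0 CPM in patBFMI. Nsdhl, the dehydrogenase of the same complex, was at 80.5, 88.1 and 104.9 CPM in matBFMI and at 62.7, 71.0 and 58.9 CPM in patBFMI. Msmo1, the oxidase that starts C4-demethylation, was at 269, 258 and 306 CPM in matBFMI and at 219, 228 and 190.1 CPM in patBFMI. The groups did not overlap for any of these 3 enzymes of one complex. Nsdhl had the smallest p of the 28 genes, with a log2 fold change of 0.49 ± 0.12 and an edgeR adjusted p of 0.21. That p ranged between 0.005 and 0.615 over the alternatives. For Msmo1 the log2 fold change was 0.37 ± 0.12 (edgeR adjusted p = 0.328). Hsd17b7 had a log2 fold change of 0.67 ± 0.17 (edgeR adjusted p = 0.227). DESeq2 gave an adjusted p of 0.015 for Nsdhl and of 0.0054 for Hsd17b7, and for Hsd17b7 the range over the alternatives was 3.56e-05 to 0.622.

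Among the regulators, Srebf2 and Insig1 were higher and Insig2 was lower in matBFMI by the estimate, and none was called. Srebf2 was at 19.1, 20.3 and 25.8 CPM in matBFMI and at 18.4, 15.4 and 15.2 CPM in patBFMI, without overlap, and its log2 fold change was 0.40 ± 0.13 (edgeR adjusted p = 0.378). Insig1, itself a target of SREBP2, was at 548.2, 559.6 and 654.2 CPM in matBFMI and at 333.6, 548.3 and 402.9 CPM in patBFMI, so that patBFMI 2 reached the lowest matBFMI value. Insig2, whose mRNA is not raised by SREBP in liver as that of Insig1 is, was at 286, 406 and 285 CPM in matBFMI and at 348.0, 487 and 384 CPM in patBFMI. The matBFMI 2 value lay within the patBFMI range, and the log2 fold change of Insig2 was -0.33 ± 0.17 (edgeR adjusted p = 0.577). Scap, the escort of SREBP2, was at 0.15 ± 0.16 with overlapping groups. The transport and esterification genes had a median log2 fold change of 0.01, with Npc1 and Npc2, which export cholesterol from lysosomes, both at 0.01.

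**Figure D2:**
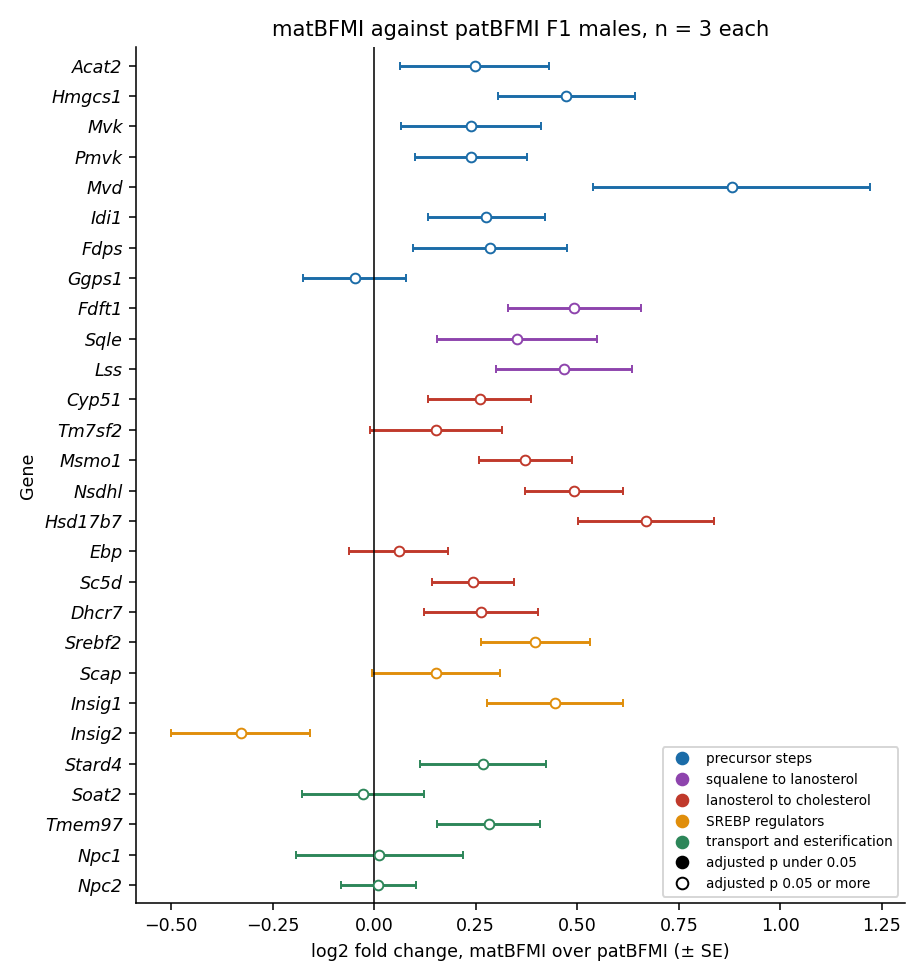
Log2 fold change of matBFMI over patBFMI F1 males (x axis, point with standard error) for each of the 28 genes (y axis, coloured by role), n = 3 each, with filled points for an edgeR adjusted p under 0.05. All points are open, 25 of 28 lie right of 0, and Mvd at 0.88 and Hsd17b7 at 0.67 lie farthest to the right.

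These F1 counts leaned on single animals. Without matBFMI 3 the number of genes with an unadjusted p under 0.05 on the higher side was 3 in place of 10, without patBFMI 3 it was 3, without patBFMI 1 it was 5 and without patBFMI 2 it was 15, while 22 to 27 log2 fold changes stayed positive. Without a filter on low counts 8 of the 28 genes were called, among 696 genes called in all. Markers of Kupffer cells and macrophages moved the other way: 0 of 10 had a positive log2 fold change, the median was -0.33 with 0 called, and the summed level was 220.1 to 252 CPM in matBFMI and 278 to 292 CPM in patBFMI. At an unadjusted p under 0.05, 8 of these 10 markers were lower and 0 higher in matBFMI, against 4.7% and 5.14% of all genes. Of 7 hepatocyte markers 2 had positive estimates, with a median of -0.07 and 0 called, and 3 were lower and 0 higher at an unadjusted p under 0.05. Their summed level was 63739 to 71221 CPM in matBFMI and 57120 to 67692 CPM in patBFMI. The part of these markers in the result was not tested.

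Further genes known to respond to SREBP went in the same direction in F1 males, as a list given by its counts only. The estimate was positive for all 10 of them, with a median log2 fold change of 0.48 and 0 called, and the 2 with the smallest p were Srebf1, which encodes the SREBP of fatty acid synthesis, at 0.90 (edgeR adjusted p = 0.0964) and the desaturase gene Fads1 at 0.60 (edgeR adjusted p = 0.127). The genes of SREBP processing and sterol-regulated degradation had a median of -0.0021 (5 of 10 positive, Rnf139 at -0.20 and Erlin1 at -0.18), those of LXR and sterol efflux 0.06 (6 of 8, Mylip at -0.20 and Lpcat3 at 0.22), those of the isoprenoid branches 0.04 (7 of 12, Rabggta at 0.24 and Rabggtb at -0.14) and those of sterol storage and transfer 0.04 (5 of 10, Lipa at 0.28 and Gramd1c at 0.29). None of the genes of these lists was called.

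Between the inbred strains, BFMI livers had more mRNA of Hmgcs1, Nsdhl and Insig2 and less of Ggps1 than B6N livers. At an edgeR adjusted p of 0.05, 4 of the 28 genes were called, against 6.67% of all genes. Of these, 3 were higher in BFMI, against 3.61% of the 19974 genes tested, and 1 was lower, against 3.05%. At an unadjusted p under 0.05, 9 were higher, against 9.72% of all genes, and 3 lower, against 8.56%. The median log2 fold change of BFMI over B6N was 0.32 over the 28 genes and -0.04 over all genes. It was positive for 21 genes, against 45.4% of all genes, for 19 to 21 under the other tools and scalings and for 17 when either female was left out. Both BFMI libraries lay above both B6N libraries for 12 genes, against 20.8% of all genes, and below them for 3 genes, against 23.0%. DESeq2 called 6 genes higher, against 4.64% of all genes, adding Idi1, Msmo1 and Dhcr7, and 2 lower, against 3.76%, adding Stard4.

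Hmgcs1 was at 724 CPM in the BFMI female and 669 CPM in the BFMI male, against 373 CPM in the B6N female and 247 CPM in the B6N male. Hmgcs1 lies on chromosome 13 at 119690379 to 119708260 (GRCm38). Both BFMI animals were far above both B6N animals, and the log2 fold change was 1.20 ± 0.23 (edgeR adjusted p = 0.0105), or 2.29 fold. Insig2 was at 618 CPM in the BFMI female and 643 CPM in the BFMI male, against 251 CPM in the B6N female and 311 CPM in the B6N male. Its BFMI values lay above every other library of the study, and the log2 fold change was 1.17 ± 0.21 (edgeR adjusted p = 0.009). Insig1, the other sensor that holds SREBP2 back, did not share this difference. Its log2 fold change of BFMI over B6N was -0.47 ± 0.25 (edgeR adjusted p = 0.396).

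Nsdhl on the X chromosome (72918557 to 72958514, GRCm38) was at 80.3 CPM in the BFMI female and 79.5 CPM in the BFMI male, against 46.3 CPM in the B6N female and 41.7 CPM in the B6N male. The log2 fold change was 0.86 ± 0.15 (edgeR adjusted p = 0.0067). In F1 males the order was the same, with the carriers of the BFMI X (matBFMI, 80.5 to 104.9 CPM) above the carriers of the B6N X (patBFMI, 58.9 to 71.0 CPM), at the log2 fold change of 0.49 given for matBFMI over patBFMI. All 6 F1 males lay above both B6N animals. The order was not particular to the X chromosome. The autosomal genes Msmo1, Hsd17b7 and Srebf2 also had both BFMI animals above both B6N animals and every matBFMI male above every patBFMI male. The part of the X chromosome in the order of Nsdhl was not tested. Ebp, the sterol isomerase and the other X-linked gene of the 28, had no such order. It was at 216 CPM in the BFMI female and 138 CPM in the BFMI male, against 193 CPM in the B6N female and 154 CPM in the B6N male, with an edgeR adjusted p of 0.999 between the strains and a log2 fold change of 0.06 ± 0.12 between the crosses.

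Ggps1 was at 4.54 CPM in the BFMI female and 4.29 CPM in the BFMI male, against 6.89 CPM in the B6N female and 7.13 CPM in the B6N male. Its log2 fold change was -0.67 ± 0.16 (edgeR adjusted p = 0.0327), with F1 males between 5.37 and 6.82 CPM, between the strains. That call was lost without matBFMI 1, without matBFMI 2, without any single inbred animal, with library size scaling, without the filter on low counts, with inbred libraries alone and with limma on RPKM. The transcripts of Ggps1 and Arid4b share 257 bases on opposite strands. The counting, in union mode, is not stated to use strand, so that it is unknown how reads from these bases were counted. Of the transport genes, Stard4, which moves cholesterol between membranes, had a log2 fold change of -0.54 ± 0.19 (edgeR adjusted p = 0.143). Sc5d was at -0.37 ± 0.14 (edgeR adjusted p = 0.195), the only one below 0 of the 8 enzymes from lanosterol to cholesterol in this fit, though Ebp, near 0, also turned negative with DESeq2 and limma and Tm7sf2 and Ebp did with single libraries left out.

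With 1 animal of each sex per strain, the strain test takes most of its spread from the F1 males. Without either male the strains are compared in the females alone, and without either female in the males alone. Each of these pairs of fits is therefore 1 check. Leaving out either male left 0 of the 28 genes called and leaving out either female left 1, Hmgcs1, in place of 4. Kupffer cell and macrophage markers were lower in BFMI, with 5 of 10 called (Adgre1 at -1.01, Cd5l at -0.94 and C1qb at -0.79) and a summed level of 259 to 334 CPM in BFMI against 439.8 to 462 CPM in B6N. Erythroid markers were higher in BFMI, with 2 of 3 called (Hba-a1 at 1.72 and Hbb-bs at 1.45), at 495 to 636 CPM against 154 to 284 CPM in B6N. The pancreatic genes Pnlip and Cpa1 were called lower in BFMI. Pnlip was at 0.12 CPM in the BFMI female and 0.05 CPM in the BFMI male, against 23.9 CPM in the B6N female and 4.62 CPM in the B6N male. Cpa1 was at 0.02 and 0.07 CPM in the BFMI female and male, against 11.6 and 2.09 CPM in the B6N female and male. Cela1, the third gene of that list, was at 16.2 to 28.1 CPM in BFMI and 13.7 to 24.3 CPM in B6N. Of the sinusoidal endothelium markers, 1 of 5 was called, Lyve1 at -1.13. Of 7 hepatocyte markers 1 had a positive estimate, with a median of -0.14 and 0 called. At an unadjusted p under 0.05, 1 of the 7 was higher and 3 were lower in BFMI, against 9.72% and 8.56% of all genes. Their summed level was 59762 to 86556 CPM in BFMI and 68657 to 85269 CPM in B6N. The part of all these markers in the strain differences was not tested. The list of SREBP processing and sterol-regulated degradation had 7 of 10 estimates above 0, a median log2 fold change of 0.15 and 1 gene called higher in BFMI. The further SREBP-responsive genes were split, with 5 of 10 above 0 and a median of -0.0036. Of these 1 was called: Por, the electron donor of Cyp51 and Sqle, was lower (log2 fold change -1.16, edgeR adjusted p = 0.0244).

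**Figure D3:**
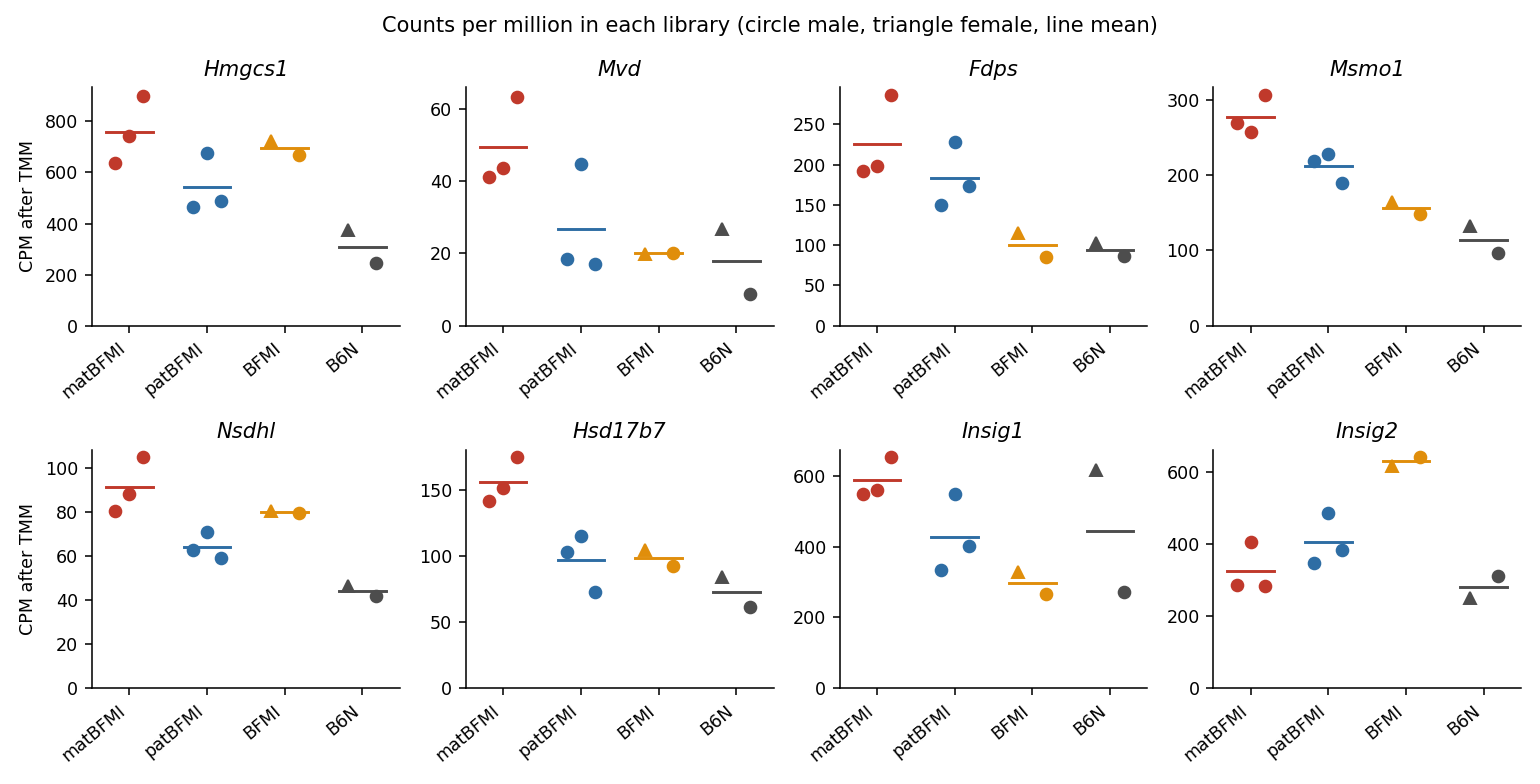
CPM after TMM scaling (y axis, from 0) of 8 of the genes in each library of matBFMI, patBFMI, BFMI and B6N (x axis), circles for males, triangles for females and a line for the mean of the group. Hmgcs1, Nsdhl and Insig2 separate BFMI from B6N, Msmo1 and Fdps are highest in the F1 groups, and patBFMI 2 lies above its group for Mvd, Hmgcs1, Fdps and Insig1.

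Females of the inbred strains tended to have higher levels than males, but no single gene passed the test. At an edgeR adjusted p of 0.05, 0 of the 28 genes were called, against 0.556% of all genes. At an unadjusted p under 0.05, 9 were higher in females and 0 lower, against 3.83% and 3.96% of all genes. DESeq2 called Sc5d and Npc2 higher, against 1.14% of all genes, and with inbred libraries alone edgeR called Mvd and Sqle. The log2 fold change of female over male was positive for 27 genes, against 54.7% of all genes, and for 24 to 27 under the other tools and scalings, with a median of 0.31 against 0.03. Without either animal of a strain the sexes are compared in the other strain alone, so that each such pair of fits is 1 check. Leaving out either B6N animal left 4 genes at an unadjusted p under 0.05 in place of 9, and leaving out either BFMI animal left 6. The female lay above the male in both strains for 23 genes, against 24.7% of all genes, and below in both for 1, Insig2, against 21.5%.

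Sc5d, with the smallest p of this comparison, was at 601 CPM in the BFMI female against 364 CPM in the BFMI male, and at 707 CPM in the B6N female against 513 CPM in the B6N male. Its log2 fold change was 0.59 ± 0.14 (edgeR adjusted p = 0.142). Insig1 was at 329 CPM in the BFMI female against 266 CPM in the BFMI male, and at 616 CPM in the B6N female against 270.6 CPM in the B6N male. For Insig1 and Mvd the gap between the sexes was mainly in B6N: Mvd was at 19.8 CPM in the BFMI female and 20.2 CPM in the BFMI male, but at 26.7 CPM in the B6N female and 8.85 CPM in the B6N male. That difference between the strains rests on 1 animal of each sex and was not tested. Of the steps from squalene to lanosterol, all 3 genes had an unadjusted p under 0.05, with Sqle at a log2 fold change of 0.71 ± 0.24, Lss at 0.61 ± 0.20 and Fdft1 at 0.49 ± 0.22. Hepatocyte markers were also higher in females by the estimate (6 of 7 positive, median 0.36, 0 called), and so were Kupffer cell and macrophage markers (9 of 10 positive, median 0.16, 0 called). At an unadjusted p under 0.05, 4 of the 7 hepatocyte and 2 of the 10 macrophage markers were higher, against 3.83% of all genes. In both lists 0 were lower, against 3.96%. All 3 pancreatic genes had positive estimates (median 1.94), with Cela1 called at 0.81. All 3 erythroid genes had negative ones (median -0.58), with Alas2 called at -1.67. Their part in the result was not tested.

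**Figure D4:**
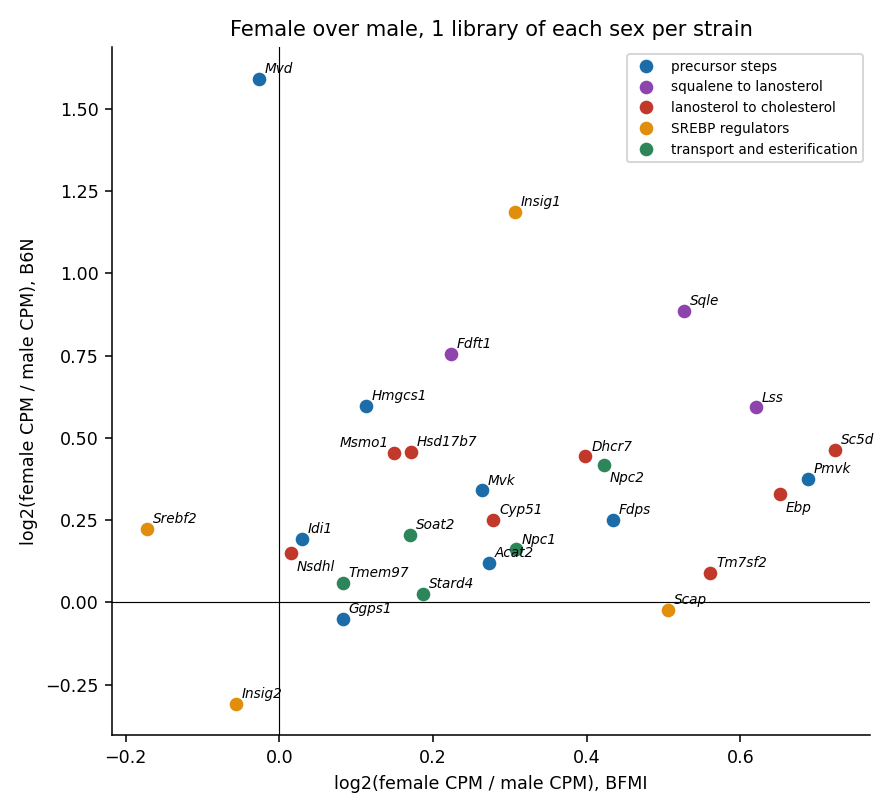
Log2 ratio of female CPM to male CPM in BFMI (x axis) and in B6N (y axis), 1 point per gene coloured by role, with 1 library of each sex in each strain. Of the 28 genes 23 lie above 0 on both axes, and only Insig2 lies below 0 on both axes.

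More of the 28 genes were called between F1 males and the inbred animals than in the other comparisons, and all of them were higher in F1 males. At an edgeR adjusted p of 0.05, 8 of the 28 genes were higher in F1 males and 0 were lower, against 1.14% and 0.916% of the 19974 genes tested (2.05% called in all). These were Pmvk and Fdps of the precursor steps, all 3 genes from squalene to lanosterol (Fdft1, Sqle and Lss), and Cyp51, Msmo1 and Sc5d of the steps to cholesterol. None of the regulators or transport genes was called. The contrast sets the mean of both crosses against the mean of both strains at the same sex, here called the inbred mean. As each strain has 1 animal of each sex, this estimate is set mainly by the 2 inbred males. The inbred females enter through the sex term and the spread. The median log2 fold change was 0.65 over the 28 genes against 0.01 over all genes, and it was positive for 27 genes, against 50.8% of all genes, with Insig2 at -0.30 as the exception (24 genes with limma on RPKM). At an unadjusted p under 0.05 there were 22 higher, against 9.02% of all genes, and 0 lower, against 7.61%. DESeq2 called 18 of the 28 higher, against 2.82% of all genes, and 0 lower, against 1.59%.

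Msmo1 had the smallest p. It was at 269, 258 and 306 CPM in matBFMI and at 219, 228 and 190.1 CPM in patBFMI, against 165 CPM in the BFMI female, 148 CPM in the BFMI male, 132 CPM in the B6N female and 96.3 CPM in the B6N male. All 6 F1 values lay above all 4 inbred values, and the log2 fold change was 1.02 ± 0.13 (edgeR adjusted p = 0.0077). Fdps was at 193, 198 and 286 CPM in matBFMI and at 150.1, 228 and 173 CPM in patBFMI, against 114.6 CPM in the BFMI female, 84.9 CPM in the BFMI male, 103 CPM in the B6N female and 86.3 CPM in the B6N male. Again no F1 library reached the inbred range, and the log2 fold change was 1.25 ± 0.20 (edgeR adjusted p = 0.0177), or 2.38 fold. Lss had 115.8, 117.3 and 171.7 CPM in matBFMI and 84.5, 111.6 and 94.1 CPM in patBFMI, against 96.05 CPM in the BFMI female, 62.5 CPM in the BFMI male, 70.5 CPM in the B6N female and 46.7 CPM in the B6N male. The BFMI female lay above 2 of the patBFMI animals for Lss, and the log2 fold change was 1.08 ± 0.18 (edgeR adjusted p = 0.0179).

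The other called genes had log2 fold changes of 1.04 ± 0.21 (Sqle, edgeR adjusted p = 0.0367), 0.93 ± 0.19 (Fdft1, edgeR adjusted p = 0.0348), 0.90 ± 0.15 (Pmvk, the phosphomevalonate kinase, edgeR adjusted p = 0.0188), 0.68 ± 0.13 (Cyp51, the lanosterol demethylase, edgeR adjusted p = 0.0349) and 0.62 ± 0.12 (Sc5d, edgeR adjusted p = 0.0314). Sc5d was at 543 to 768 CPM in F1 males. Both inbred females lay within that range (BFMI 601 CPM, B6N 707 CPM) and both inbred males below it (BFMI 364 CPM, B6N 513 CPM). Every F1 library lay above every inbred library for 5 genes (Fdps, Tm7sf2, Msmo1, Scap and Tmem97), against 3.13% of all genes, and below for 0, against 2.71%. Compared with the 2 inbred males only, every F1 male was higher for 15 genes, against 7.79% of all genes. Srebf2 was at 15.2 to 25.8 CPM in F1 males against 14.5 to 22.5 CPM in the inbred animals (log2 fold change 0.06 ± 0.14, edgeR adjusted p = 0.868). Its escort Scap was at 98.1 to 151.9 CPM in F1 males against 59.6 to 84.7 CPM in the inbred animals, with a log2 fold change of 0.79 ± 0.18 (edgeR adjusted p = 0.0533), just outside the threshold. Mvd had the largest estimate, 1.37 ± 0.42, but was not called (edgeR adjusted p = 0.138), and Insig1 was at 0.89 ± 0.22 (edgeR adjusted p = 0.0709). For Insig1 the B6N female, at 616 CPM, lay within the F1 range of 334 to 654 CPM. The other inbred animals lay below it, at 266 to 329 CPM. Ggps1 and Soat2 were at 0.09 ± 0.13 and 0.05 ± 0.14. Of the genes not yet named here, Mvk, Tm7sf2, Hsd17b7, Dhcr7, Ebp, Nsdhl, Hmgcs1, Idi1, Acat2, Stard4, Tmem97, Npc1 and Npc2 lay between 0.11 for Npc2 and 0.78 for Mvk, none of them called.

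**Figure D5:**
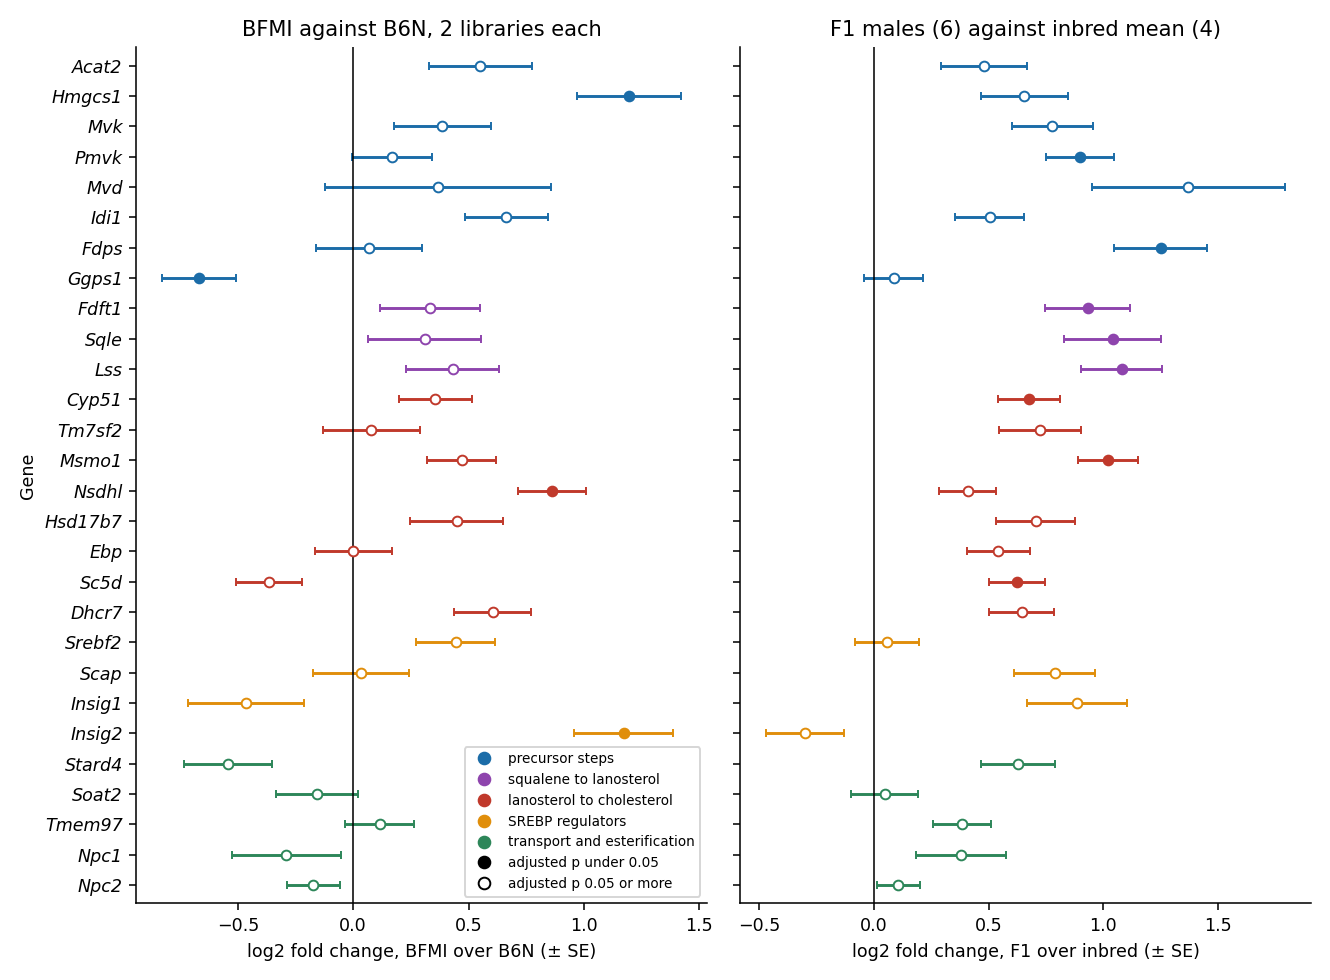
Log2 fold change with standard error (x axes) of the 28 genes (y axis, coloured by role), with filled points for an edgeR adjusted p under 0.05. The left panel is BFMI over B6N. The right panel is F1 males over the inbred mean at male sex, an estimate set mainly by the inbred males. On the left Hmgcs1, Nsdhl and Insig2 are filled right of 0 and Ggps1 left of it, and on the right 8 genes are filled, all right of 0.

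These calls rested on both inbred males. Without the B6N male or without the BFMI male 0 of the 28 genes were called, while 26 and 27 log2 fold changes stayed positive, and without patBFMI 1 there were 15. Leaving out matBFMI 1, 2 or 3 left 4, 5 and 4 called. The diet of the inbred animals, the sequencing lane and F1 status cannot be told apart. Kupffer cell and macrophage markers were lower in F1 males by the estimate (0 of 10 positive, 4 called lower, among them Marco at -3.39 and Cd5l at -0.54). At an unadjusted p under 0.05, 8 of these 10 were lower, against 7.61% of all genes. Their summed level was 220.1 to 292 CPM in F1 males, 259 to 334 CPM in BFMI and 439.8 to 462 CPM in B6N. F1 males and BFMI thus overlapped, and only B6N lay apart. The pancreatic genes Pnlip and Cpa1 were called lower. Pnlip was at 0 to 0.12 CPM in F1 males and 0.05 to 0.12 CPM in BFMI, against 4.62 to 23.9 CPM in B6N. Cpa1 was at 0 to 0.02 CPM in F1 males and 0.02 to 0.07 CPM in BFMI, against 2.09 to 11.6 CPM in B6N. Cela1, the third gene of that list, went the other way, with a positive estimate and an unadjusted p under 0.05. It was at 16.4 to 27.9 CPM in F1 males. In the inbred males it was at 16.2 CPM (BFMI) and 13.7 CPM (B6N), and in the inbred females at 28.1 CPM (BFMI) and 24.3 CPM (B6N). Of 7 hepatocyte markers 5 had positive estimates (median 0.24) and 1 was called, Cps1 at 0.81 (edgeR adjusted p = 0.0217), while Alb was at -0.07 and Fgb at -0.15. At an unadjusted p under 0.05, 4 of the 7 hepatocyte markers were higher and 0 lower in F1 males, against 9.02% and 7.61% of all genes. Their summed level was 57120 to 71221 CPM in F1 males and 59762 to 86556 CPM in inbred animals. The number of genes with a count also differed, at 22095 to 32421 in F1 males, the highest being patBFMI 1, and 29942 to 34572 in inbred animals. The part of these values in the result was not tested. Of the further SREBP-responsive genes, 3 of 10 were called higher in F1 males, Acss2 at 1.48, Rdh11 at 1.11 and Srebf1 at 0.78 (edgeR adjusted p = 0.0225, 0.0217 and 0.0393), whereas none of the genes of the other lists on sterols was called.

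Several of the genes share sequence with another locus, so that the authors' counting could split their reads. Fdps has 3 processed pseudogenes among the counted genes (Gm3571 at 98.9% identity, Gm5873 at 96.7% and Gm8163 at 96.1%), and 61.1% of the reads of Fdps and these copies together were counted at the copies. For Acat2 and Acat3 (97.7% identity) the share at the copy was 52.4%, for Fdft1 and Gm6781 43.2%, for Idi1 and Gm13502 37.6% and for Tmem97 and Gm5809 22.0%. With the counts of the copies added, an alternative chosen after seeing the data, Fdps and Fdft1 kept their calls in F1 males against inbred animals, with log2 fold changes of 1.26 (edgeR adjusted p = 0.0158, over the alternatives 5.53e-11 to 0.301) and 0.92 (edgeR adjusted p = 0.0265, over the alternatives 3.82e-07 to 0.267), and the number of the 28 genes called was 0, 4, 0 and 8 in the comparisons of the crosses, the strains, the sexes and F1 against inbred. Fdft1 also shares 774 bases with Ctsb on the opposite strand, Cyp51 166 bases with Akap9 and Npc1 967 bases with Rmc1, both on the opposite strand, and Tm7sf2 532 bases with Vps51 on the same strand, and the share of reads this concerns is unknown.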

How the data were processed

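Liver RNA of 10 mice was measured. The authors aligned trimmed paired reads to GRCm38 and, after removal of duplicates, counted them on Ensembl 81 genes in union mode. The deposited counts are whole, unnormalized reads. The deposited RPKM values were made by the authors from quantile-normalized data. As tools, the submitters' processing notes give Picard 1.99, Bowtie2 2.2.6, TopHat2 2.10 and Trimmomatic 0.32, whereas the methods of the study name BWA. The records give polyA RNA as molecule and a ribosomal RNA removal protocol. In each of the tables, 3 columns without a sample record were not used.

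Counts were tested with edgeR 4.0.16 (R 4.3.3) by the quasi-likelihood test after TMM scaling, with Benjamini-Hochberg adjustment over all genes tested and a threshold of 0.05. The F1 fit held 6 libraries and 16797 genes with at least 10 counts in 3 libraries. The fit of 10 libraries had a strain or cross term, a sex term and 19974 genes with at least 10 counts in 2 libraries. Precision is set by the spread between animals (biological coefficient of variation 15.9% and 17.7%), since the lowest count of the 28 genes was 234. Alternatives were DESeq2 1.42.0, limma 3.58.1 on log2(RPKM + 1) and log2(RPKM + 0.1), scaling by library size, no filter, one fit of all 10 libraries, inbred libraries alone, the offspring number as a block, each library left out, and copies added (after seeing the data). Symbols and positions came from GENCODE M21 (40254 of 41388 genes matched), promoters from RefSeq, and copies from BLAST 2.17.0. Tables and plots were made with matplotlib 3.10.9, numpy 2.4.6, pandas 2.3.3 and Python 3.11.15. The fits were tested on simulated data.

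All 28 genes are accounted for. Genes outside them are named where they passed the threshold (up to 3 per list) or had the 2 smallest p of a sterol list in the F1 comparison. Alb and Fgb were named after their values were seen. The genes and lists were chosen with earlier results of these data known. The result of 1 gene of these lists that passed the threshold is not reported here.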

Additional observations from a re-analysis of the deposited data

How the results depend on the processing

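The direction of the median of the 28 genes did not change under any alternative run, lying between 0.17 and 0.36 for matBFMI over patBFMI, 0.24 and 0.41 for BFMI over B6N, 0.23 and 0.32 for female over male and 0.50 and 0.68 for F1 males over the inbred mean, on the log2 scale. The number of the 28 genes called was 2, 8, 2 and 18 with DESeq2 and 8, 7, 2 and 19 without the filter on low counts, in the order crosses, strains, sexes and F1 against inbred. For the sexes it was 2 with inbred libraries alone, and for F1 against inbred 2 with limma on log2(RPKM + 0.1). Leaving out 1 library gave 0 to 1, 0 to 6, 0 and 0 to 15.

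All genes called between the crosses were 24, but 307 with DESeq2, 12 with all 10 libraries in 1 fit, 56 with library size scaling, 2 with limma at either pseudocount, 696 without the filter and 7 to 66 with 1 library left out. Between the strains 320 and 364 were called by limma with a pseudocount of 0.1 and 1, and 563 to 1523 with 1 library left out, against 1332. Between the sexes 388 were called by DESeq2, 466 with inbred libraries alone, 34 and 40 by limma with a pseudocount of 0.1 and 1, 582 without the filter and 39 to 159 with 1 library left out, against 111. For F1 against inbred 882 were called by DESeq2, 42 and 264 by limma with a pseudocount of 0.1 and 1, 1410 without the filter and 15 to 957 with 1 library left out, against 410. The median of all genes moved to -0.12 (crosses) and -0.67 (F1 against inbred) with limma at 0.1, to -0.28 (F1 against inbred) with limma at 1, and to -0.19 (F1 against inbred) without the filter. The cause was not tested.

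The offspring numbers did not pair the libraries, as the correlations of same-numbered deviations were 0.30, -0.057 and 0.11, so the replicate block is given only here: it called 175 genes and 0 of the 28. No paired analysis was possible for the other comparisons because the inbred animals carry no shared number.

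Genes near 0 changed sign. Between the crosses, Ggps1 was at 0.028 and Soat2 at 0.053 with library size scaling, Soat2 at 0.0088 without the filter, and Npc2 at -0.014 with limma at either pseudocount. Between the strains Ebp was at -0.0011 with DESeq2, and with limma at 0.1 and 1 Ebp was at -0.049 and -0.048 and Scap at -0.0077 and -0.0063. With 1 library left out, the crosses gave -0.13 to 0.059 for Ggps1, -0.055 to 0.26 for Tm7sf2, -0.0084 to 0.18 for Ebp, -0.062 to 0.28 for Scap, -0.16 to 0.11 for Soat2, -0.19 to 0.16 for Npc1 and -0.067 to 0.058 for Npc2, and the strains gave -0.43 to 1.19 for Mvd, -0.024 to 0.16 for Fdps, -0.16 to 0.31 for Tm7sf2, -0.16 to 0.16 for Ebp and -0.23 to 0.30 for Scap. With 3 animals per cross and 1 per sex and strain, differences of the size seen here may be missed, and nothing says whether the spread within the inbred strains equals that of the F1 males.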
